A study of Mus musculus with 6 samples.

Results

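ATP-binding cassette (ABC) transporters use ATP to move lipids, bile constituents, conjugated drugs and hormones, peptides and metal complexes across membranes. The genes described here are the mouse genes of subfamilies A, B and C whose symbols carry a subfamily letter and a number, together with *Abcg2*, and without *Abca1* and *Abcb11*. By symbol, 35 of the 54446 genes counted match, with 15 genes in subfamily A, 9 in B, 10 in C and 1 in G. They were grouped by the membrane in which the protein is mainly known to work: 5 in the canalicular membrane, which faces the bile, 5 in the basolateral membrane, which faces the blood, 4 in mitochondria, 4 in lysosomes or other vesicles, and 17 with another or a less settled location.

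RNA was sequenced from the liver of 3 wild-type (WT) mice and of 3 *Fmo5*-/- mice, 1 library of single 75-base reads per mouse. Both genotypes have a C57BL/6 background in the labels, which the study's methods give as C57BL/6J. The methods describe male mice fed a standard chow diet and housed in adjacent cages, and the discussion an age of 32 weeks. *Fmo5* encodes flavin-containing monooxygenase 5, an enzyme of the endoplasmic reticulum, and the mice lack it in all cells rather than in hepatocytes alone. Each mouse is 1 replicate, which mice shared a cage is not given in the sources used here, and the comparison asks how the liver transcripts differ when FMO5 is absent.

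In the hepatocyte, uptake from blood, conjugation and export are coupled. The canalicular pumps pass conjugates, phospholipid and drugs into bile, and the basolateral MRP proteins of subfamily C return conjugates to blood, a route known to gain weight when bile flow is impaired. The mitochondrial members of subfamily B serve iron and heme metabolism, and most members of subfamily A move lipids.

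Between 44886286 and 52338675 reads per library were counted on genes, and a gene with no count can have up to 3 counts, or 0.0573 to 0.0668 CPM (counts scaled to a library total of 1e6), for counting error alone. *Fmo5* itself (97628804 to 97655282 on chromosome 3 of mm10) had normalized counts of 30240 to 39807 in WT mice and 1071 to 1194 in *Fmo5*-/- mice, whose mean was 3.13% of the WT mean. A normalized count is the raw count over the TMM-scaled size of its library, times the mean of those sizes. Summed over 6 hepatocyte markers, they were 5001509 to 6630389 in WT and 5146420 to 6474900 in *Fmo5*-/- mice, and the scarcest of the 6, *Hnf4a*, had 23527 or more in every library. Summed over 6 Kupffer cell markers, they were 7356 to 8754 in WT and 11681 to 21604 in *Fmo5*-/- mice. All 6 markers were higher in the mean of the *Fmo5*-/- mice, and 5 of 6 without overlap (13.9% of all tested genes were higher without overlap). Summed over 6 lymphocyte markers, the normalized counts were 667 to 927 in WT and 973 to 2020 in *Fmo5*-/- mice, again with all 6 means higher. Of the 5, 6 and 6 tested markers of cholangiocytes, endothelial cells and stellate cells, edgeR and DESeq2 called 0. An unadjusted p under 0.05 from edgeR was found for 0, 2 and 1 of them (21.8% of all tested genes had one). Of the 2 endothelial markers, 1 was lower and 1 higher in *Fmo5*-/- mice. In bulk liver, fewer cells of a type and less RNA per cell cannot be told apart.

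Of the 35 genes, 28 passed the filter on low counts and were compared between the genotypes with edgeR's quasi-likelihood test, adjusted over all 16734 genes tested. At an adjusted p under 0.05, edgeR called 0 of the 28, against 1.37% of all tested genes. DESeq2, fitted to the same counts, called 3 of the 26 genes for which it gave an adjusted p, against 8.93% of the 15634 genes for which it gave one. These were *Abcg2* and *Abcb4*, both lower in *Fmo5*-/- mice, and *Abcc5*, which was higher. At an unadjusted p under 0.05 from edgeR, 7 of the 28 differed, against 21.8% of all tested genes. Of these, 4 were lower (background 10.2%) and 3 were higher (background 11.6%) in *Fmo5*-/- mice. All 3 *Fmo5*-/- mice lay below all 3 WT mice in 3 members (13.5% of all tested genes did) and above them in 6 (13.9% of all tested genes did). The unadjusted share was therefore close to that of liver genes in general. The median log2 fold change, *Fmo5*-/- over WT, was 0.02 over the 28 members and 0.01 over all tested genes, with 14 members lower and 14 higher in the mean. Among the 17 members averaging 500 or more normalized counts the median was -0.06, as it was over the 7819 such genes.

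**Figure D1:**
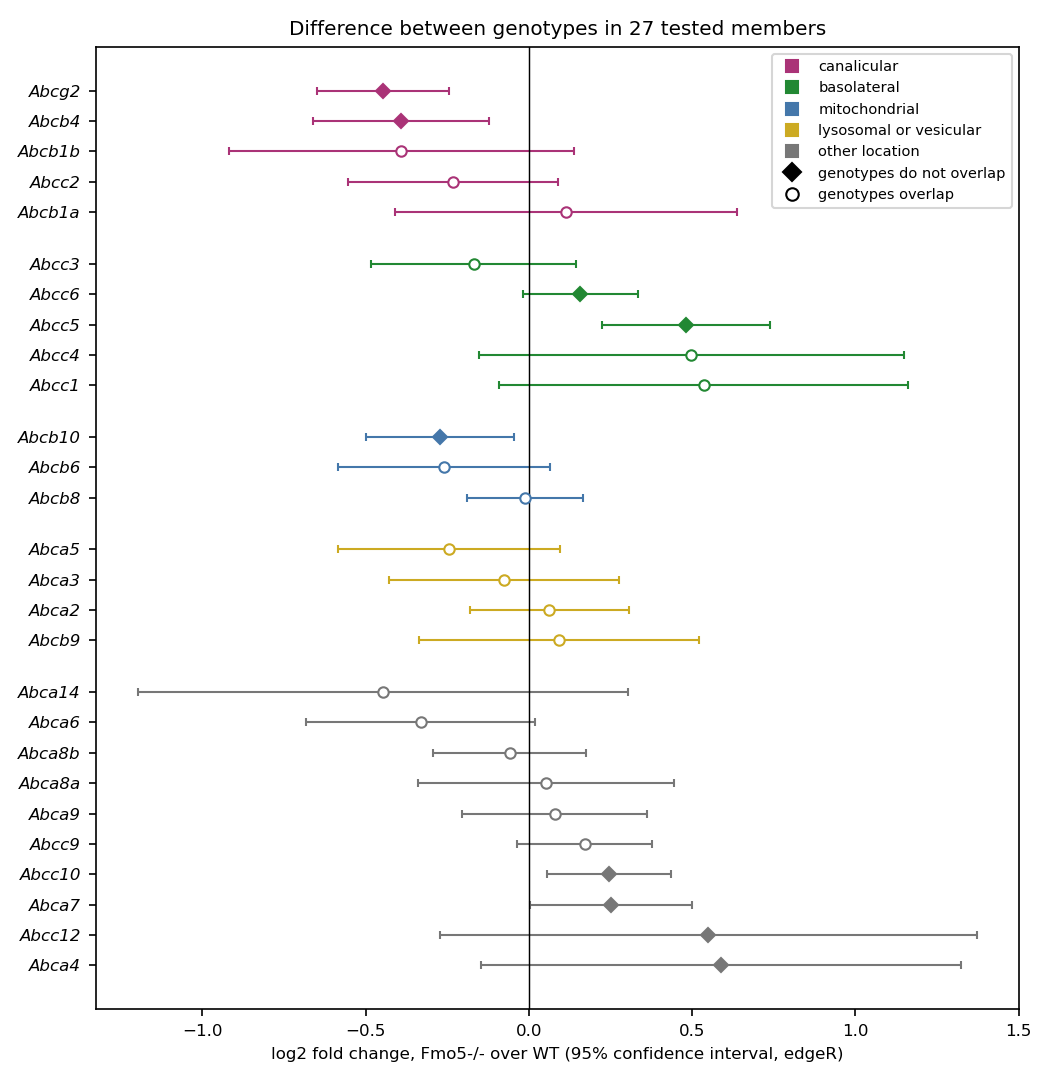
Log2 fold change of 27 of the 28 tested members (x axis, *Fmo5*-/- over WT, with its 95% confidence interval from edgeR), by location. Filled diamonds mark the 9 members whose normalized counts did not overlap between genotypes, and open circles the others. *Abcg2*, *Abcb4* and *Abcc5* have intervals farthest from 0 among the canalicular and basolateral members, and the 3 mitochondrial members shown lie at or below 0.

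The members spanned a wide range of abundance. Levels of different genes were compared as TPM, the share of a gene in all transcripts after its counts are divided by the length of its exons. In WT mice 13 members stood at 10 TPM or more. *Abcc2* was the most abundant with 201 ± 26.7 TPM (SD, n = 3), followed by *Abcc3* with 116 ± 21.4, *Abcc6* with 109 ± 2.47, *Abca6* with 78.3 ± 9.14 and *Abcb4* with 72.9 ± 10.95 TPM. *Abcc3* and *Abcc6* overlapped in their individual mice, as did *Abca6* and *Abcb4*. *Abcc2* alone made up 25.6% ± 2.43 of the summed TPM of all 35 members in WT mice and 24.1% ± 1.51 in *Fmo5*-/- mice. The 5 most abundant members together made up 73.4% ± 1.79 and 72.3% ± 1.02. The order of levels depends on the length assumed for a gene. With the longest transcript as length, *Abcb4* moved from 72.9 to 139 TPM, ahead of *Abcc3* at 109 TPM, and the number at 10 TPM or more was again 13.

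**Figure D2:**
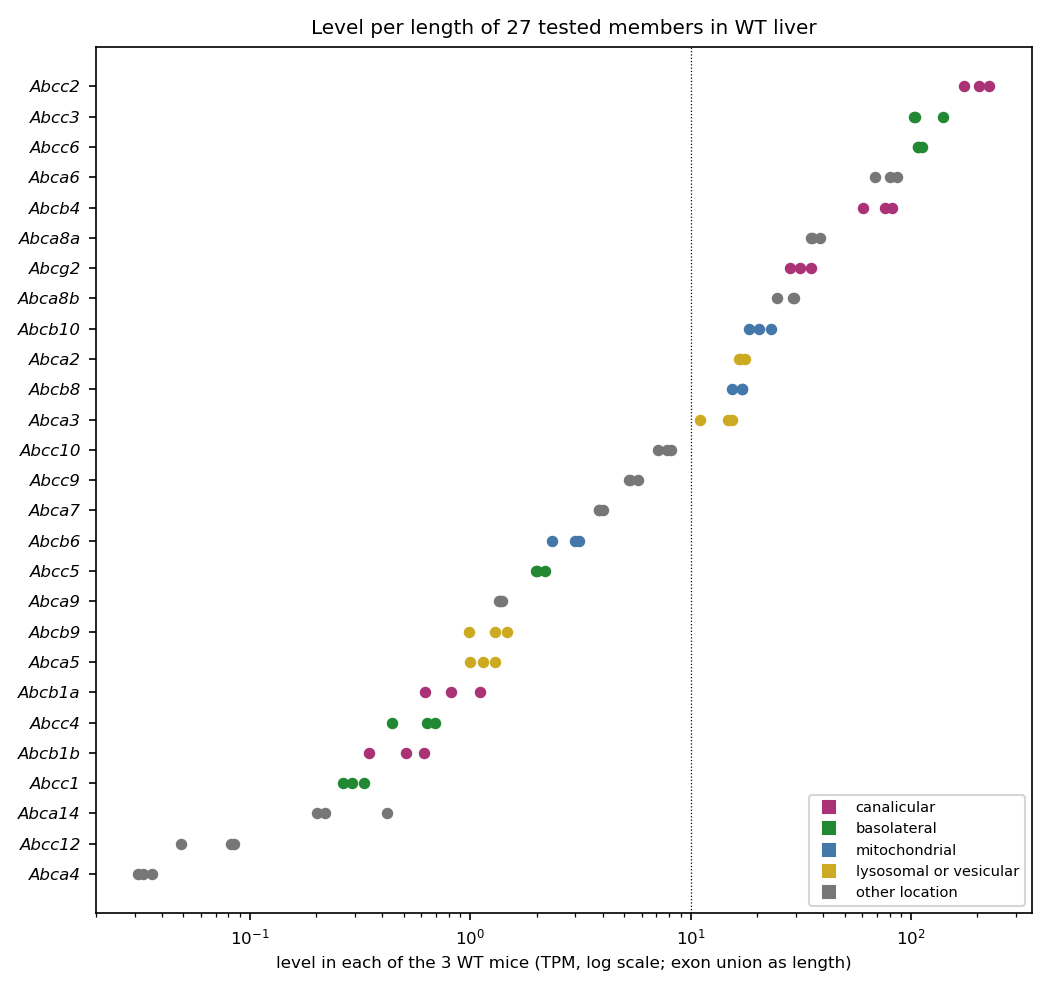
Level per length of 27 of the 28 tested members in the 3 WT mice (TPM on a log scale, 1 point per mouse, the dotted line at 10 TPM), coloured by location. *Abcc2* is highest at 201 TPM in the mean, the mitochondrial *Abcb10* and *Abcb8* sit close together at 20.7 and 16.5 TPM, and *Abcb1a*, *Abcb1b*, *Abcc1* and *Abcc4* lie below 1 TPM in the mean.

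The canalicular members were lower in the mean of *Fmo5*-/- mice for 4 of 5 genes (49.2% of all tested genes were, and 63.9% of those with a mean of 500 or more), and their median log2 fold change was -0.39. The 3 abundant genes of this membrane, *Abcg2*, *Abcb4* and *Abcc2*, all had lower means, and the mice of both genotypes were fully apart for *Abcg2* and *Abcb4* only (13.5% of all tested genes were lower without overlap). EdgeR called 0 of the 5 (2 at an unadjusted p under 0.05, background 21.8%) and DESeq2 called 2 (background 8.93%). Summed per kilobase of exon, canalicular normalized counts were 7308, 5910 and 6404 in WT mice and 6062, 4901 and 5104 in *Fmo5*-/- mice, and these ranges overlap.

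*Abcg2* (chromosome 6, 58584523 to 58695676) encodes the breast cancer resistance protein, which exports sulphated conjugates, urate, porphyrins and many drugs. Its normalized counts were 5461, 5905 and 5037.5 in WT mice and 4285, 3852 and 3896 in *Fmo5*-/- mice. All 3 *Fmo5*-/- mice lay below the lowest WT mouse. The means were 5468 ± 434 and 4011 ± 239 (SD, n = 3 each), so that the *Fmo5*-/- mean was 73.4% of the WT mean. The log2 fold change was -0.45 (standard error 0.09, 95% interval -0.65 to -0.25), with an adjusted p of 0.0510 from edgeR and 0.0010 from DESeq2. Over the 12 alternatives the adjusted p ran from 0.00027 to 0.143 and was under 0.05 in 4. In the order of edgeR's p-values *Abcg2* was gene 232 of 16734, just beyond the 229 called.

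*Abcb4* (chromosome 5, 8893717 to 8959231) encodes the floppase MDR2, which delivers phosphatidylcholine to bile. It had normalized counts of 16442, 14727 and 12431 in WT mice and 11870, 11359 and 10016 in *Fmo5*-/- mice. The genotypes did not overlap, though the highest *Fmo5*-/- mouse came close to the lowest WT mouse. The *Fmo5*-/- mean was 76.2% of the WT mean (11082 ± 958 against 14533 ± 2013), a log2 fold change of -0.39 (standard error 0.12) with an adjusted p of 0.110 from edgeR and 0.0272 from DESeq2. Its adjusted p lay between 0.0027 and 0.311 over the 12 alternatives.

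*Abcc2* (chromosome 19, 43782192 to 43840740) encodes MRP2, the canalicular pump for bilirubin glucuronides and glutathione conjugates. The WT mice had normalized counts of 41419, 30599 and 37854, and 36213, 27196 and 30150 were found in *Fmo5*-/- mice. The second WT mouse lay within the *Fmo5*-/- range. The log2 fold change was -0.23 with a 95% interval from -0.55 to 0.09 (adjusted p = 0.383 from edgeR). It was -0.13 without the first WT mouse, -0.14 without the second *Fmo5*-/- mouse and -0.35 without the first *Fmo5*-/- mouse. Within a mouse, the TPM ratio of *Abcc2* to *Abcb4* was 2.80 ± 0.53 in WT and 3.10 ± 0.40 in *Fmo5*-/- mice, and that of *Abcb4* to *Abcg2* was 2.31 ± 0.27 and 2.40 ± 0.16, each a difference smaller than the spread between mice.

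*Abcb1a* and *Abcb1b* encode the P-glycoproteins of rodents, broad drug pumps that are weakly expressed in hepatocytes. *Abcb1a* had normalized counts of 130, 92.6 and 74.6 in WT mice and 107, 120 and 94.2 in *Fmo5*-/- mice. *Abcb1b* had 59.3, 102 and 89.0 in WT mice and 60.6, 67.9 and 61.9 in *Fmo5*-/- mice. Both overlapped between genotypes, with log2 fold changes of 0.11 (interval -0.41 to 0.64) and -0.39 (interval -0.92 to 0.14). The value of *Abcb1b* was -0.58 without the first WT mouse and -0.22 without the second. These genes lie beside *Abcb4* in a 299 kb stretch of chromosome 5, and 17.1% of the 75-base windows of *Abcb1a* and 9.01% of those of *Abcb1b* also occur in transcripts of other genes, each other among them. Another annotated gene overlaps 10.1% of the exon length of *Abcb1a* and 1.79% of that of *Abcb1b*. Reads that map to several places, or to exons of more than 1 gene, were not counted. *Abcb4* shares 1.49% of its windows, and *Abcg2* and *Abcc2* share 0.

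The 250 bases before the transcription start are shown for the 3 members that DESeq2 called, *Abcg2*, *Abcb4* and *Abcc5*, and for the most abundant member, *Abcc2*. The sequences are those of RefSeq on GRCm38.p6, the build of mm10, where 28 of the 35 members had an entry. For *Abcg2*, 3 starts are listed, and the stretch shown belongs to the one nearest the start of the principal GENCODE transcript. That start lies inside the span given above for the gene. They run 5′ to 3′ on the gene's strand and stand at chr6:58596422-58596671 (plus strand), chr5:8893471-8893720 (plus), chr16:20426395-20426644 (minus) and chr19:43782058-43782307 (plus). Capitals mark matches to 5 motifs searched on both strands. TGACNNNGC is the core of the antioxidant response element, at which NRF2 is known to bind. AGGTCA is the site to which many nuclear receptors bind, and GGGCGG is the GC box known for factors of the SP family. TATAAA is the TATA box of many start sites, and ATTGG is the CCAAT box as it reads on the other strand.
Abcg2: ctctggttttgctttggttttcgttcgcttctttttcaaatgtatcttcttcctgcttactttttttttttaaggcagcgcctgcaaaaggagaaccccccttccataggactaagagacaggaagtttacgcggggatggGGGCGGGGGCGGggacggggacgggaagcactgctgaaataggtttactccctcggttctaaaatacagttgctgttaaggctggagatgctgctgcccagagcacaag
Abcb4: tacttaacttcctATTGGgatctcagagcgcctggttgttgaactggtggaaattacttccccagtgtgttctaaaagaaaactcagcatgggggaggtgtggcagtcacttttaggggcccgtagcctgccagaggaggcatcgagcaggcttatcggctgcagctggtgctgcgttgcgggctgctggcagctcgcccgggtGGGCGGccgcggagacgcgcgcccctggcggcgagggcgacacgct
Abcc5: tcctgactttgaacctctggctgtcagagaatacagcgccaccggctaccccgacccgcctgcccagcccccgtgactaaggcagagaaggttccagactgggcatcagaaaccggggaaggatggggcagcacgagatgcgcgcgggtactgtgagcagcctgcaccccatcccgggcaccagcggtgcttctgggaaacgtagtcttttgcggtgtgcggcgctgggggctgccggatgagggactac
Abcc2: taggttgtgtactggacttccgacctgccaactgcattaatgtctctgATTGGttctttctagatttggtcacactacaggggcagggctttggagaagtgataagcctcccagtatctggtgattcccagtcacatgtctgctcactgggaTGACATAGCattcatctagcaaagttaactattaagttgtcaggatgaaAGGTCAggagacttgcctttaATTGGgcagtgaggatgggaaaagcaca

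These capitals are matches of letters and not measured binding. The *Abcg2* stretch holds 2 adjacent GC boxes, at -109 and -103 from the start, and the *Abcb4* stretch holds 1 GC box at -46 and ATTGG at -237. The *Abcc5* stretch holds none of the 5 motifs. The *Abcc2* stretch holds the antioxidant response element core at -98, AGGTCA at -49 and ATTGG at -202 and -28 from its RefSeq start. That start lies 116 bases downstream of the GENCODE start, where the span given above for the gene begins. Of these matches, only ATTGG at -202 lies before the GENCODE start, and the others lie inside the annotated gene. In windows that also take in the 50 bases after the start, 35.7% of 32851 promoters held a GC box, 37.4% ATTGG, 12.4% the antioxidant response element core, 16.3% AGGTCA and 13.6% TATAAA. Of the 32 windows listed for members, 15, 11, 7, 6 and 4 held them. The windows of *Abcb4* and *Abcc5* had a GC content of 64.0% and 63.0% and held 21 and 24 CpG, whereas those of *Abcg2* and *Abcc2* had 48% and 45% with 10 and 1 CpG.

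Among the basolateral members, 4 of 5 had a higher mean in *Fmo5*-/- mice, and the median log2 fold change was 0.48. Of all tested genes 49.2% had a lower mean, and of those with a mean of 500 or more 63.9% did. Without overlap 2 were higher, *Abcc5* and *Abcc6* (13.9% of all tested genes were). EdgeR called 0 of the 5 (1 at an unadjusted p under 0.05, background 21.8%) and DESeq2 called 1, *Abcc5* (background 8.93%). The members with the largest log2 fold changes were the scarce ones. Of the abundant members, *Abcc3* had a lower and *Abcc6* a higher mean in *Fmo5*-/- mice. The summed level per kilobase of the 5 was 4847 ± 448 in WT and 4868 ± 222 in *Fmo5*-/- mice, a difference smaller than the spread.

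*Abcc5* (chromosome 16, 20331303 to 20426394) encodes MRP5, an exporter of cyclic nucleotides and other organic anions. Its normalized counts were 460, 440 and 510 in WT mice and 621, 745 and 602 in *Fmo5*-/- mice. Every *Fmo5*-/- mouse lay above the highest WT mouse. The means were 470 ± 36.4 and 656 ± 77.8 (SD, n = 3 each), the *Fmo5*-/- mean being 140% of the WT mean. The log2 fold change was 0.48 (standard error 0.11, 95% interval 0.22 to 0.74), with an adjusted p of 0.0701 from edgeR and 0.0158 from DESeq2. Over the 12 alternatives its adjusted p lay between 0.0051 and 0.189.

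*Abcc6* (chromosome 7, 45967555 to 46030302) encodes MRP6, a protein of hepatocytes needed for the release of ATP and so for circulating pyrophosphate, which restrains tissue calcification. The normalized counts of *Abcc6* were 13105, 13201 and 13492 in WT mice and 14810, 14711 and 14880 in *Fmo5*-/- mice. Relative to its mean, the spread within a genotype was smaller here than in any other tested member of this membrane. The SDs were 201 and 84.9 around means of 13266 and 14800, or 1.52% and 0.57% of the mean, and the genotypes did not overlap. The *Fmo5*-/- mean was 112% of the WT mean, a log2 fold change of 0.16 (standard error 0.08, interval -0.02 to 0.33), and edgeR, which draws the variance of each gene towards that of genes of similar abundance, gave an adjusted p of 0.277. DESeq2 gave 0.331.

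*Abcc3* (chromosome 11, 94343295 to 94392997) encodes MRP3, the main basolateral exporter of glucuronides. For this gene the normalized counts were 17116, 12239 and 12791 in WT mice and 13828, 12329 and 11320 in *Fmo5*-/- mice. The genotypes overlapped, and the log2 fold change of -0.17 (interval -0.48 to 0.15) rested on the first WT mouse, since it was 0.0020 without it. *Abcc2*, on the opposite membrane, was also highest in the first WT mouse, and the TPM ratio of *Abcc2* to *Abcc3* was 1.75 ± 0.19 in WT and 1.67 ± 0.17 in *Fmo5*-/- mice. The ratio of *Abcc2* to *Abcc6* was 2.12, 1.55 and 1.88 in WT mice and 1.64, 1.24 and 1.36 in *Fmo5*-/- mice, where the first *Fmo5*-/- mouse lay above the second WT mouse.

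*Abcc1* and *Abcc4* encode MRP1 and MRP4, broad exporters of conjugates that are scarce in healthy hepatocytes. *Abcc1* had normalized counts of 85.8, 90.4 and 108 in WT mice and 129, 195 and 88.4 in *Fmo5*-/- mice. *Abcc4* had 86.8, 91.5 and 61.3 in WT mice and 129, 140 and 68.7 in *Fmo5*-/- mice. In both genes the first and the second *Fmo5*-/- mouse were above all WT mice and the third was not. The log2 fold changes were 0.54 (interval -0.09 to 1.16) and 0.50 (interval -0.15 to 1.15), with adjusted p of 0.303 and 0.355 from edgeR. Without the second *Fmo5*-/- mouse the log2 fold changes were 0.20 and 0.31, and without the third they were 0.77 and 0.75 (adjusted p = 0.104 and 0.109 from edgeR).

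The sums of the Kupffer cell and of the lymphocyte markers stood highest in the same 2 *Fmo5*-/- mice. Their summed normalized counts were 21604, 20656 and 11681 for the Kupffer cell markers and 1436, 2020 and 973 for the lymphocyte markers in the *Fmo5*-/- mice, in the order of the other values. Among the 6 Kupffer cell markers, edgeR called *Clec4f* and DESeq2 called 5 (background 8.93%). The edgeR call of *Clec4f* was kept in 2 of the 6 fits without 1 library (adjusted p up to 0.102). Among the 6 lymphocyte markers edgeR called 0 (3 at an unadjusted p under 0.05, background 21.8%) and DESeq2 called 2. The sum of the stellate cell markers was also highest in the second *Fmo5*-/- mouse, at 10314, 14515 and 11304 in *Fmo5*-/- mice against 10282 to 11619 in WT mice. *Abcc1*, *Abcc4*, *Abcc5* and *Abca7* all had their highest value in the second *Fmo5*-/- mouse, as did *Abcc9* and the scarce *Abca4*. The Kupffer cell sum was highest in the first *Fmo5*-/- mouse, and *Abcc6* and *Abcc10* were highest in the third. The part of these cells in the members' values was not tested.

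**Figure D3:**
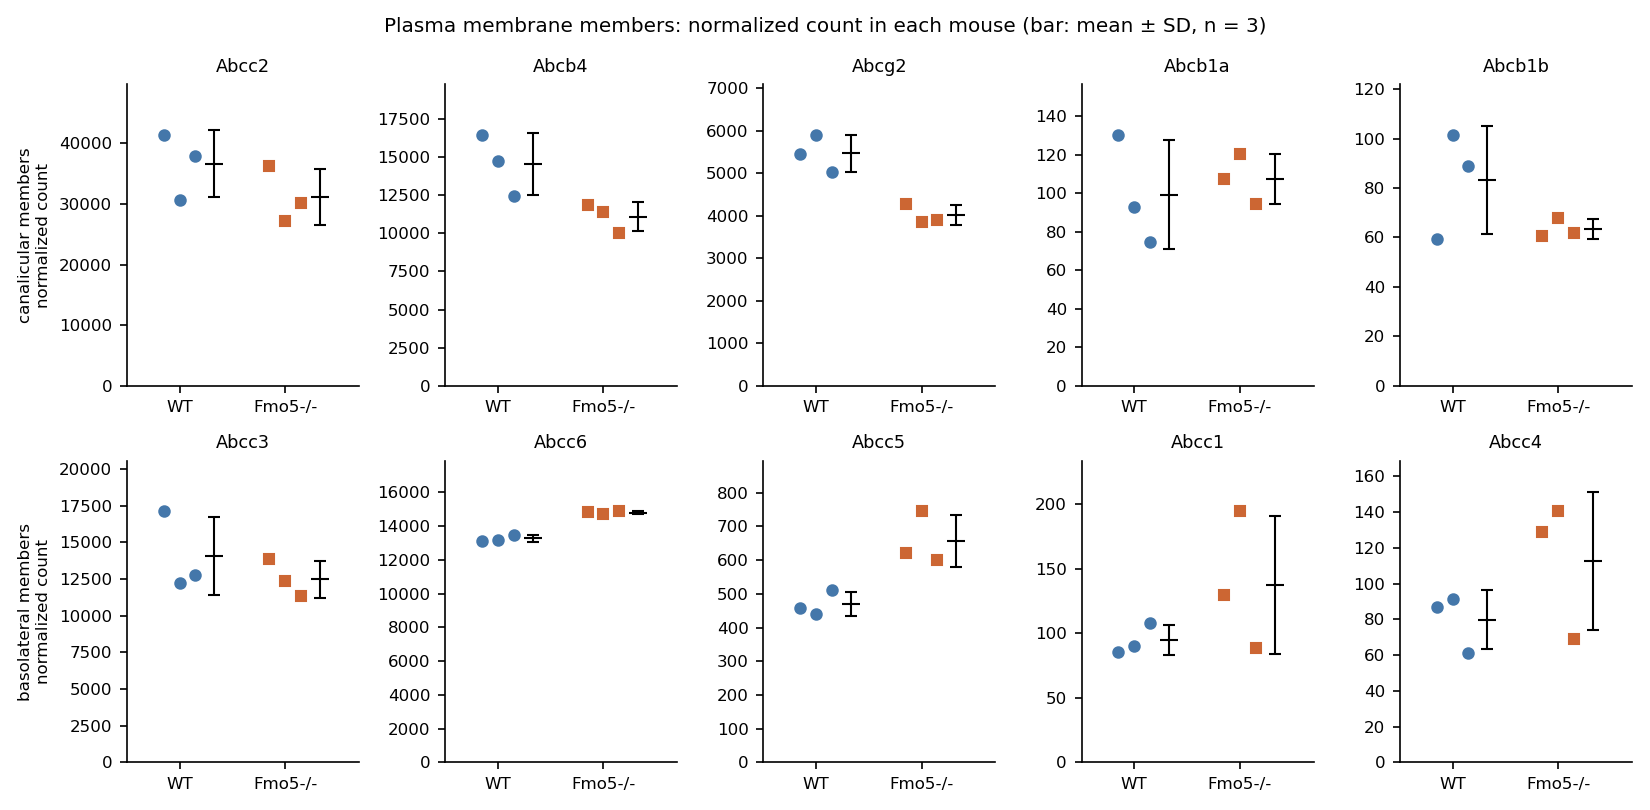
Normalized counts of the 5 canalicular members (top row) and the 5 basolateral members (bottom row) in each WT mouse (circles) and *Fmo5*-/- mouse (squares), with the mean ± SD (n = 3) beside them and each y axis starting at 0. *Abcb4* and *Abcg2* are lower and *Abcc6* and *Abcc5* higher in *Fmo5*-/- mice without overlap, and the other 6 overlap.

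**Figure D4:**
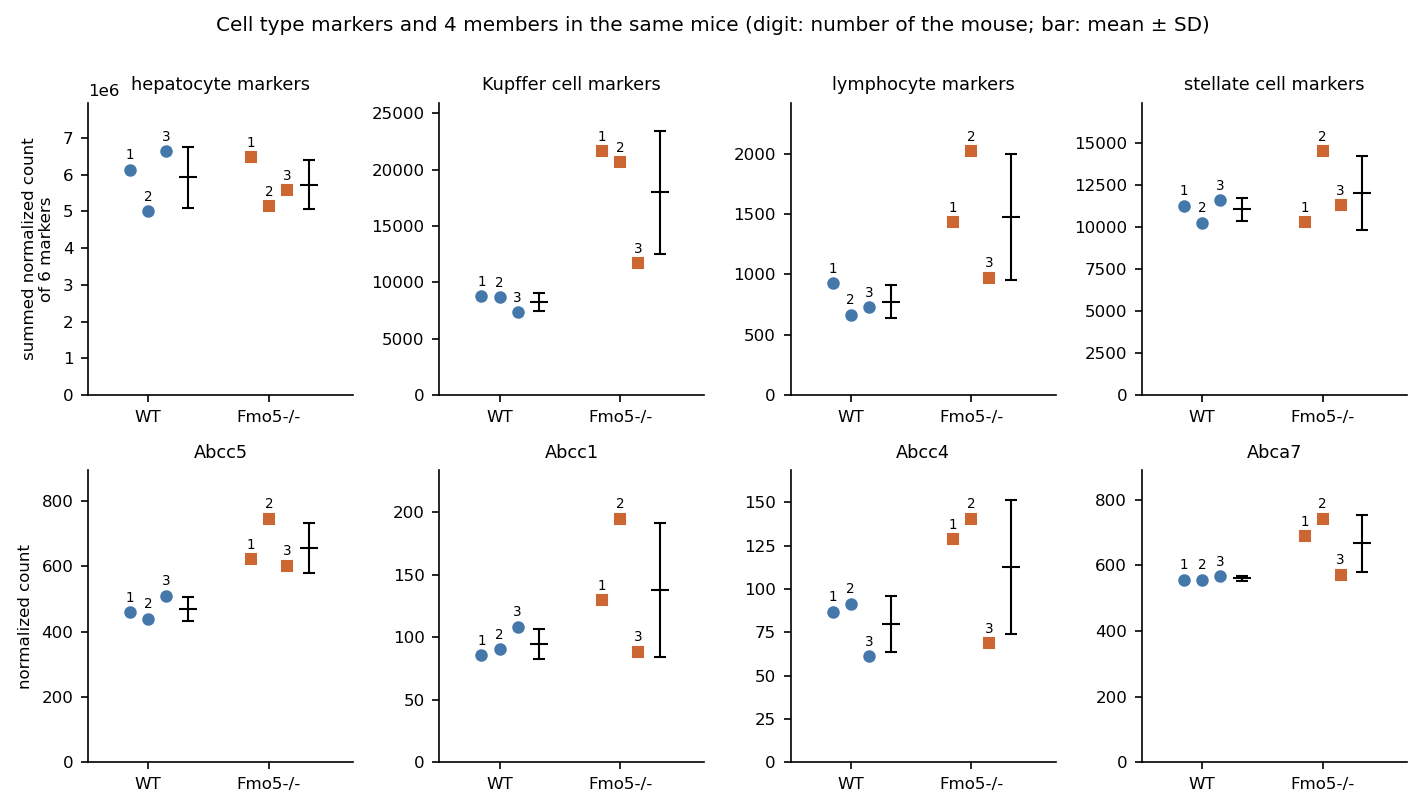
Summed normalized counts of 6 markers each of hepatocytes, Kupffer cells, lymphocytes and stellate cells (top row) and normalized counts of *Abcc5*, *Abcc1*, *Abcc4* and *Abca7* (bottom row) in the same mice, numbered 1 to 3 within a genotype, with the mean ± SD. The Kupffer cell sums are 11681 to 21604 in *Fmo5*-/- mice against 7356 to 8754 in WT mice, and are highest in the first *Fmo5*-/- mouse. All 4 genes shown are highest in the second *Fmo5*-/- mouse, as are *Abcc9* and *Abca4*, which are not shown.

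The mitochondrial members *Abcb10*, *Abcb8* and *Abcb6* had a lower mean in *Fmo5*-/- mice, by very little in *Abcb8*. EdgeR and DESeq2 called 0 of these 3, and 1, *Abcb10*, had an unadjusted p under 0.05 from edgeR (background 10.2% lower).

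*Abcb10* (chromosome 8, 123952459 to 123983122) encodes an inner membrane transporter required for normal heme synthesis. Its normalized counts were 1881, 2054 and 1739 in WT mice and 1638, 1384 and 1678 in *Fmo5*-/- mice. The genotypes did not overlap, and *Abcb10* had a log2 fold change of -0.27 (standard error 0.10, interval -0.50 to -0.05) with an adjusted p of 0.162 from edgeR. Another annotated gene on the opposite strand overlaps 10.3% of its exon length, and since the counts take no account of strand, reads in exons of both were not counted.

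*Abcb8* (chromosome 5, 24393663 to 24410054), an inner membrane transporter linked to iron export, had normalized counts of 1560, 1670.5 and 1764 in WT mice and 1612, 1627 and 1715 in *Fmo5*-/- mice. The *Fmo5*-/- mice lay within the WT range, and the interval of the log2 fold change, -0.19 to 0.17, leaves out a change of the size estimated for *Abcb10*. *Abcb6* (chromosome 1, 75171717 to 75180392), a porphyrin transporter placed in the outer mitochondrial membrane and also in other compartments, had 353, 328 and 274 in WT mice and 242, 298 and 256 in *Fmo5*-/- mice, with overlap and a log2 fold change of -0.26 (interval -0.58 to 0.06). Its counts are uncertain, because 55.2% of its exon length lies within exons of another annotated gene on the same strand, and reads in exons of more than 1 gene were not counted.

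In 15 other genes of mitochondrial iron and heme metabolism, edgeR called 0, 4 had an unadjusted p under 0.05 (all lower in *Fmo5*-/- mice, background 10.2%) and DESeq2 called 1 (background 8.93%). The called gene was *Aco1*, the iron-regulatory cytosolic aconitase, with normalized counts of 16086, 15939 and 14501 in WT mice and 13532, 11552 and 12109 in *Fmo5*-/- mice (log2 fold change -0.32, adjusted p = 0.101 from edgeR and 0.0248 from DESeq2). The means were lower in *Fmo5*-/- mice for 12 of the 15, and the median log2 fold change was -0.16. All 15 have a mean of 500 or more, and of all such genes 63.9% had a lower mean, with a median of -0.06.

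The lysosomal and vesicular members showed no separation between the genotypes in any of the 4 genes. EdgeR and DESeq2 called 0 of the 4, and 0 had an unadjusted p under 0.05. *Abca2* (chromosome 2, 25428703 to 25448540), a lipid transporter of late endosomes and lysosomes, had normalized counts of 2991, 2848 and 3217 in WT mice and 3659, 2828 and 2966 in *Fmo5*-/- mice. *Abca3* (chromosome 17, 24351950 to 24410201), known for loading lipid into the lamellar bodies of the lung, had 2960, 2968 and 2260 in WT mice and 3156, 2264 and 2344 in *Fmo5*-/- mice. In both genes the first *Fmo5*-/- mouse was the highest of the 6. *Abca5* (chromosome 11, 110269369 to 110337716) had 281, 305 and 248 against 273, 207 and 223, and *Abcb9* (chromosome 5, 124061530 to 124095798), a lysosomal peptide transporter, had 155, 170 and 121 against 181, 162 and 132. The log2 fold changes of the 4 lay between -0.24 for *Abca5* and 0.09 for *Abcb9*, with adjusted p of 0.386 to 0.823 from edgeR. The intervals were -0.18 to 0.31 for *Abca2*, -0.43 to 0.28 for *Abca3*, -0.59 to 0.10 for *Abca5* and -0.34 to 0.52 for *Abcb9*.

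**Figure D5:**
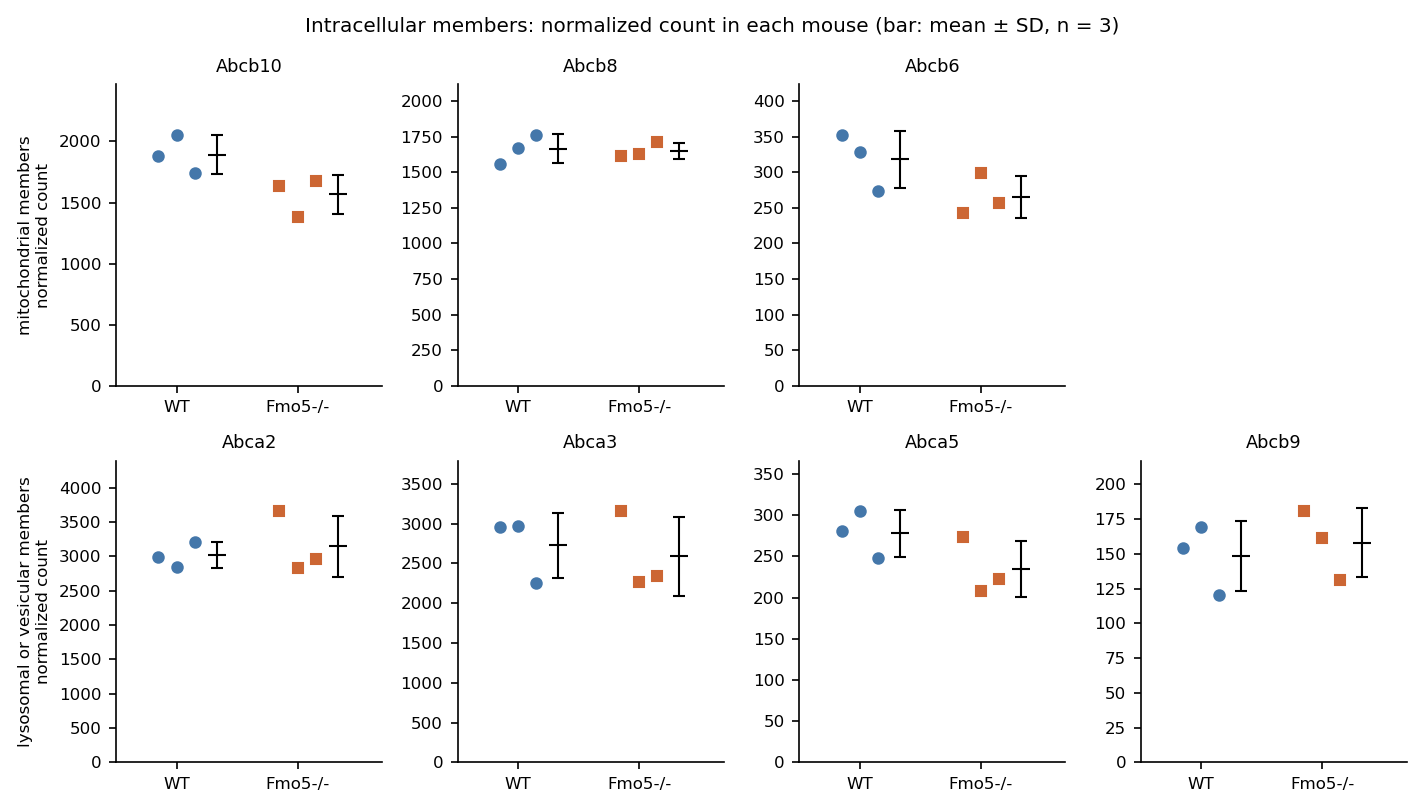
Normalized counts of 3 mitochondrial members (top row) and the 4 lysosomal or vesicular members (bottom row) in each WT mouse (circles) and *Fmo5*-/- mouse (squares), with the mean ± SD (n = 3) beside them and each y axis starting at 0. *Abcb10* is the only 1 of the 7 shown without overlap between the genotypes.

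Among the 17 members with another or less settled location, 10 were tested, edgeR and DESeq2 called 0, and 2 had an unadjusted p under 0.05 from edgeR, *Abca7* and *Abcc10*, both higher in *Fmo5*-/- mice (background 11.6%). All 3 *Fmo5*-/- mice were above all WT mice in 4 of the 10 (background 13.9%), these 2 and the scarce *Abca4* and *Abcc12*. A run of 5 subfamily A genes, *Abca8b*, *Abca8a*, *Abca9*, *Abca6* and *Abca5*, fills a 406 kb stretch of chromosome 11, and its members differed widely in level. *Abca6* stood at 78.3 TPM, *Abca8a* at 36.4 and *Abca8b* at 27.7, against 1.37 for *Abca9* and 1.14 for *Abca5* in WT mice.

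*Abca6* (chromosome 11, 110176820 to 110251776), the most abundant member of subfamily A, had normalized counts of 9961, 8965 and 8052 in WT mice and 8187, 5463 and 7795 in *Fmo5*-/- mice. The first *Fmo5*-/- mouse lay above the third WT mouse. For *Abca6* the log2 fold change was -0.33 (interval -0.68 to 0.02, adjusted p = 0.254 from edgeR), and without the second *Fmo5*-/- mouse it was -0.17. *Abca8a*, of the same stretch, had 5171, 4622 and 4804 in WT mice and 5121, 3718 and 6299 in *Fmo5*-/- mice, a spread of 25.6% of the mean among *Fmo5*-/- mice. *Abca8b*, whose human counterpart is known for cholesterol efflux and HDL, had 4662, 3777 and 4709 in WT mice and 4524, 3978 and 4118 in *Fmo5*-/- mice. The second *Fmo5*-/- mouse was the lowest of its genotype in all 3 genes. The log2 fold changes of *Abca8a*, *Abca8b* and *Abca9* lay between -0.06 and 0.08.

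*Abca7* (chromosome 10, 79996494 to 80015572), a lipid transporter of macrophages and brain with a role in phagocytosis, had 556, 557 and 567 in WT mice and 688, 742 and 571 in *Fmo5*-/- mice. The genotypes did not overlap, although the third *Fmo5*-/- mouse was close to the highest WT mouse. The log2 fold change was 0.25 (interval 0.0046 to 0.50, adjusted p = 0.221 from edgeR). *Abcc10* (chromosome 17, 46303221 to 46328352), which encodes the drug exporter MRP7, had 1040, 1106 and 1217 in WT mice and 1303, 1300 and 1382 in *Fmo5*-/- mice. Here every *Fmo5*-/- mouse was above every WT mouse, with a log2 fold change of 0.24 (interval 0.05 to 0.44) and an adjusted p of 0.140 from edgeR.

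*Abcc9* and *Abcc8* encode the sulfonylurea receptors SUR2 and SUR1, which gate ATP-sensitive potassium channels rather than carry a cargo. *Abcc9* had 940, 922 and 1057 in WT mice and 1014, 1178.5 and 1095 in *Fmo5*-/- mice, with overlap and a log2 fold change of 0.17 (interval -0.04 to 0.38). *Abcc8* had 0 counts in all 6 libraries. Of the channel subunits, *Kcnj8*, the partner of SUR2 in vessels, had 203 to 279 in WT and 252 to 317 in *Fmo5*-/- mice, and *Kcnj11*, the partner of SUR1 in the pancreas, had 0 counts in 5 of the 6 libraries.

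The remaining members were scarce. *Abca4*, the retinoid transporter of photoreceptors, had 8, 8 and 8 raw counts in WT mice and 14, 16 and 11 in *Fmo5*-/- mice. It is the only member on chromosome 3, where it lies 24.4 Mb from *Fmo5*. *Abcc12* had 11, 6 and 12 raw counts in WT mice and 21, 14 and 13 in *Fmo5*-/- mice. Neither gene's groups overlapped, but the adjusted p from edgeR was 0.333 and 0.420 on these few counts. *Abca14* had 24, 24 and 53 against 27, 30 and 26 raw counts, with the third WT mouse far above the others. The 7 members that did not pass the filter were *Abca12*, *Abca13*, *Abca15*, *Abca16*, *Abca17*, *Abcb5* and *Abcc8*, with at most 4 raw counts in any library.

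Other genes of the ABC superfamily were read beside the members. The peptide transporters *Tap1* and *Tap2* of the endoplasmic reticulum belong to subfamily B but carry other symbols. *Tap2* had normalized counts of 768, 809 and 823 in WT mice and 1100, 1253 and 1052 in *Fmo5*-/- mice, and it rose by 0.50 on the log2 scale (standard error 0.09) with an adjusted p of 0.0421 from edgeR and 0.0015 from DESeq2. The edgeR call was lost in 5 of the 6 fits without 1 library (adjusted p up to 0.129) and was kept without the third *Fmo5*-/- mouse, and it was lost with the mean of 500 set before the fit. *Tap1* had 1612, 1355 and 1354 in WT mice and 2617, 3360 and 1919 in *Fmo5*-/- mice (log2 fold change 0.87, adjusted p = 0.0709 from edgeR and 2.2e-04 from DESeq2). Both were highest in the second *Fmo5*-/- mouse, as were the sums of the lymphocyte and of the stellate cell markers. The Kupffer cell sum was highest in the first *Fmo5*-/- mouse, and the part of these cells in *Tap1* and *Tap2* was not tested. *Cftr*, an ABC protein of bile duct cells, had 5.30 to 16.4 normalized counts.

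Of 14 ABC genes outside the rule, including *Abca1* and *Abcb11*, edgeR called 0, 6 had an unadjusted p under 0.05 (background 21.8%) and DESeq2 called 5 (background 8.93%). The peroxisomal fatty acid transporter *Abcd3* had 36873, 35963 and 34742 in WT mice and 27625, 21444 and 25225 in *Fmo5*-/- mice (log2 fold change -0.53, adjusted p = 0.0523 from edgeR and 2.6e-04 from DESeq2). The ribosome recycling factor *Abce1* had a log2 fold change of -0.33 (adjusted p = 0.0779 and 0.0225). The other 3 genes called by DESeq2 were higher in *Fmo5*-/- mice: *Abcg5*, which with *Abcg8* exports sterols into bile, by 0.41 on the log2 scale (adjusted p = 0.0786 and 0.0248), the sterol transporter *Abcg1* by 0.76 (0.0850 and 0.0095) and *Abcg3* by 0.90 (0.0554 and 0.0025). *Abcg1* had 388, 510 and 276 in *Fmo5*-/- mice and *Abcg3* had 178, 196 and 131, so that both, like the sums of the Kupffer cell and lymphocyte markers, were lowest in the third mouse, and the part of these cells was not tested. *Abcb11*, the canalicular bile salt export pump, had 41780 to 50085 in WT and 40044 to 46293 in *Fmo5*-/- mice (log2 fold change -0.08, interval -0.32 to 0.15).

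Of 11 other genes of canalicular transport, which encode further transporters of this membrane or proteins that hold or supply them, edgeR called 0, 4 had an unadjusted p under 0.05 (all lower in *Fmo5*-/- mice, background 10.2%) and DESeq2 called 1 (background 8.93%). The called gene was *Slc47a1*, the canalicular organic cation exporter MATE1, with 9460, 8657 and 9402 in WT mice and 7345, 7999 and 7609.5 in *Fmo5*-/- mice (log2 fold change -0.26, adjusted p = 0.118 from edgeR and 0.0390 from DESeq2). The means were lower in *Fmo5*-/- mice for 10 of the 11, with a median of -0.14, and 6 were lower without overlap (13.5% of all tested genes were). Among the 7819 tested genes with a mean of 500 or more, as 10 of these 11 have, 63.9% had a lower mean and the median was -0.06. Among 12 transcription factors and regulators known to act on these transporters, edgeR called 0, 2 had an unadjusted p under 0.05 (both lower in *Fmo5*-/- mice) and DESeq2 called 1, against the same backgrounds. This was *Nfe2l2*, which encodes NRF2, with 4394, 4009 and 4569 in WT mice and 3727, 3373 and 3474 in *Fmo5*-/- mice (log2 fold change -0.29, adjusted p = 0.0939 from edgeR and 0.0331 from DESeq2).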

How the data were processed

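RNA-seq of liver from 3 WT and 3 *Fmo5*-/- mice was analysed. The authors clipped adapters, mapped reads to mm10 with STAR 2.6.0c and deposited the counts per gene of each library. The authors also deposited normalized values (signal), which equal the counts of both strands divided by 1 DESeq2 size factor per library. This was checked on the files, where 49.9% to 50.1% of stranded counts fell on 1 strand, and the counts of both strands were analysed. The other deposited columns, counts of a single strand, served as an alternative. Of the reads of a library, 66.2% to 69.2% were counted on genes. Unmapped reads (9.10% to 10.1%), reads mapped to several places (10.4% to 13.1%), in no gene (6.86% to 8.63%) or in more than 1 gene (3.52% to 3.98%) entered no library size or test. The authors' fold changes and p-values were not used.

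Genes that passed filterByExpr (minimum count 10) were compared by edgeR 4.0.16 in R 4.3.3, using TMM factors and its quasi-likelihood test with robust estimation, with all 6 libraries and Benjamini-Hochberg adjustment over 16734 genes. A call is an adjusted p under 0.05. The typical coefficient of biological variation was 15.0%. The alternatives were DESeq2 1.42.0, RLE factors, TMM without the 20 most abundant genes, no filter, a mean of 500 or more before or after the fit, 1 strand, and each library left out. TPM used the union of exons of GENCODE vM21 (same build), or the longest transcript, and 33 of 35 identifiers matched in version. The steps were tested on simulated data.

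Every member is counted, and the values of 1 are not reported here. Values per mouse are given for the canalicular, basolateral, mitochondrial and lysosomal members reported, for members called by either tool, and for those with a mean of 500 or more, and 3 scarcer members were named after their values were seen. Genes of the related lists are named where either tool called them, and *Abcb11*, *Cftr*, *Kcnj8* and *Kcnj11* were added after their values were seen. Members and lists were chosen with earlier results of these data known.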

Additional observations from a re-analysis of the deposited data

How the results depend on the processing

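The number of members called was 0 in edgeR's main comparison, with the mean of 500 set before or after the fit, when 1 strand was counted, and when any 1 library was left out. It was 1 with RLE factors and 1 with TMM taken without the 20 most abundant genes (*Abcg2* in both), 3 with DESeq2 (*Abcg2*, *Abcb4*, *Abcc5*) and 4 with no filter on low counts (these 3 and *Abca6*). Over all genes, edgeR called 229 of 16734 in the main comparison and 1989 of 34200 with no filter, and DESeq2, which was run on the same 34200 genes, called 1396 of the 15634 to which it gave an adjusted p, so that its tool and its gene set were changed together. The calls of the 4 genes depend on the filter and, for *Abcg2*, the scaling, while their direction was the same in all 12 alternatives. The number of listed related genes called was 1 (*Tap2*) and became 2 with RLE factors, 10 with DESeq2, 13 with no filter and 0 with the mean of 500 before the fit, and it ran from 0 to 4 when 1 library was left out, with 4 without the third *Fmo5*-/- mouse, where 763 genes were called in all, and 0 in the 5 other fits, where 31 to 148 were. The cause was not tested. Of 155 log2 fold changes of members under other settings, 3 reversed: *Abcb9* to -0.010 with the reads of 1 strand, and *Abcb8* to 0.052 and *Abca8b* to 0.0030 with the mean of 500 before the fit.

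Of 168 log2 fold changes without 1 library, 10 reversed, in 8 members. Their ranges were -0.63 to 0.0037 for *Abca14*, -0.060 to 0.13 for *Abca2*, -0.25 to 0.012 for *Abca3*, -0.14 to 0.23 for *Abca8a*, -0.053 to 0.36 for *Abcb1a*, -0.051 to 0.037 for *Abcb8*, -0.033 to 0.21 for *Abcb9* and -0.26 to 0.0020 for *Abcc3*. No paired analysis was possible because the labels give the mice no shared numbers. In the main comparison, the smallest log2 fold change that edgeR called in any gene was 0.39 in size. Changes the size of most members' were below what it called there. With no filter on low counts, edgeR called *Abca6* at -0.34.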
